A study of Mus musculus with 11 samples.

Results

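The cells described here were chosen as retinal endothelial cells, the cells that line the retinal vessels. A cell entered the selection when it had over 300 genes and at least 1 UMI in at least 3 of 9 endothelial genes, namely Cldn5, Pecam1, Cdh5, Kdr, Flt1, Tek, Egfl7, Esam and Ly6c1. The rule took 144 of 20033 cells with over 300 genes (20067 cells in all). A UMI is a molecular tag, so a UMI count is a count of distinct captured transcripts.

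The cells came from whole retinas of C57BL/6J mice at P10, dissociated with papain after the anterior segment and the retinal pigment epithelium had been removed, and captured with inDrop v3. Control pups (n = 3) received the PBS vehicle, and Phase I ROP pups (n = 3) received streptozotocin (STZ), which destroys insulin-producing cells, by daily injection from P1 to P9. The study speaks of littermates, but its description of the model gives smaller litters for STZ-treated than for untreated pups. The ω-3 diet (n = 2) and ω-6 diet (n = 3) groups were also STZ-treated, and their nursing dams received an ω-3 LCPUFA or an ω-6 LCPUFA diet (LCPUFA, fatty acids with long chains and several double bonds). Each mouse gave 1 library, both sexes were used, and in this model hyperglycemia stands in for the metabolic state of early retinopathy of prematurity (Phase I ROP), without any change in oxygen.

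Endothelial cells of the retina are joined by tight junctions and form the inner blood-retina barrier, so nutrients cross by dedicated transporters. In the neonatal mouse the network spreads from the optic nerve, led by tip cells that follow VEGF from the tissue around them, and then sprouts into the deep layers. Norrin, a ligand made by Müller glia, acts on endothelial Fzd4 and its partners Lrp5 and Tspan12 to promote deep sprouting and barrier maturation.

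Per library, 2565568 to 6517776 UMIs were counted in all cells and 31455 to 214771 in the selected cells. The median UMIs per cell ran from 1550 to 2341 in control mice and from 1003.5 to 1190 in Phase I ROP mice, without overlap. The control libraries also stood apart in RNA content in all other cells. In those cells mt-Rnr2, the large mitochondrial ribosomal RNA, was 32604 ± 5289 CPM (UMIs of a gene scaled to the same total per set of cells; SD, n = 3) in control and 5442 ± 1925 in Phase I ROP mice, and Fosb, an immediate early gene, was 0.596 ± 0.181 against 122 ± 21.3. Each group had its own libraries, so treatment and library cannot be told apart for any gene. Of the 20067 cells, 2352 carried a barcode that was also present in another library, among them 20 selected cells, and no barcode was shared between selected cells.

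The number of selection genes divided the selected cells into parts that differed in identity. Of the 144 cells, 60 had a UMI in exactly 3 of the 9 genes and 84 in 4 or more, and 70 of these 84 had 6 or more. Just outside the threshold were 471 cells with exactly 2, of which 408 had Kdr, 255 had Flt1, 189 had Pecam1, 4 had Cldn5 and none had Cdh5. In the 60 cells at the threshold, 37 held the combination of Pecam1, Kdr and Flt1.

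Most of the 60 cells carried the genes of Müller glia, the radial glia of the retina. Of these 60 cells, 51 (85%) had at least 5 of 9 Müller glia markers, against 7 of the 84 cells with more selection genes. In the 51 cells Cldn5 was present in 1 cell and Cdh5 and Tek in none, whereas Kdr was present in all (100%) and Flt1 in 92.2%. The 1000 Müller glia reference cells, cells outside the selection with at least 5 of those markers, had Kdr in 80.9% and Flt1 in 23.5% of cells but no UMI of Cldn5, Cdh5 or Tek. The summed level of the Müller glia markers was 19927 CPM in the 60 cells, 16462 CPM in the reference Müller glia and 2007 CPM in the 84 cells. The data therefore went against the endothelial label for most cells with exactly 3 genes. The same held for most of the 8 cells with exactly 4 genes. Of these 8 cells, 6 had at least 5 Müller glia markers, 2 had Cldn5 and none had Cdh5. Identity is described below for the 84 cells, which still include these 8 cells. These shares describe how the selection worked and were not tested.

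**Figure D1:**
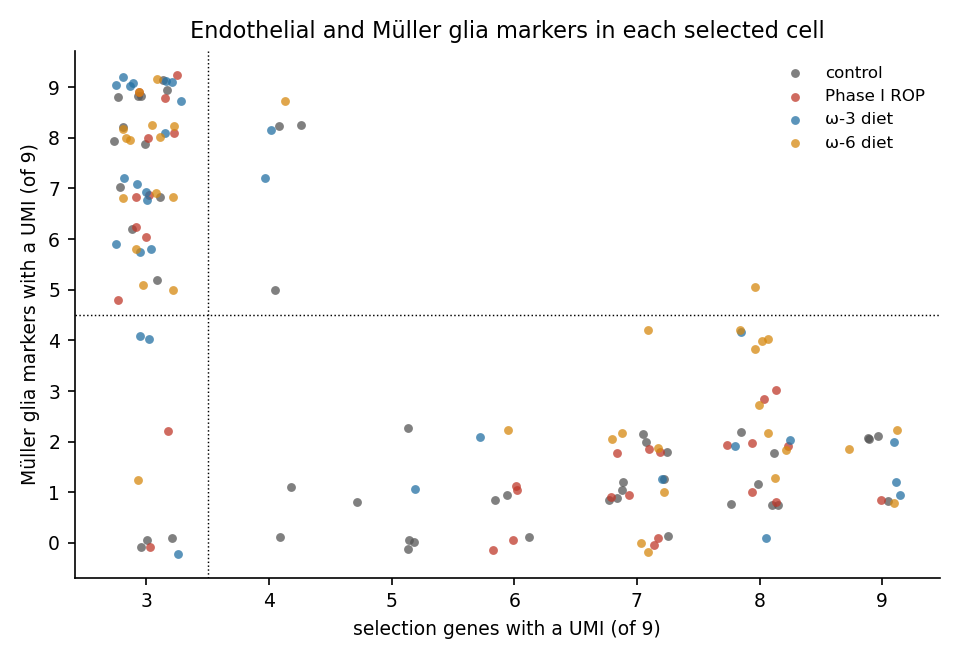
Number of the 9 selection genes with a UMI (horizontal) against the number of 9 Müller glia markers with a UMI (vertical), 1 point per selected cell (144 cells, slightly displaced to show overlaps). Of the 60 cells with exactly 3 selection genes, 51 had 5 or more Müller glia markers, and 77 of the 84 cells with more selection genes had fewer than 5.

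In the 84 cells the selection genes formed the junctional and receptor set of endothelium. Cldn5, the main claudin of central nervous system tight junctions, was present in 92.9% of the cells, and in 77 of the 77 cells with under 5 Müller glia markers. Cdh5, the adherens junction protein VE-cadherin, was present in 78.6%, Pecam1 in 85.7%, Esam in 85.7% and Egfl7, a secreted factor of the vessel wall, in 92.9%. The VEGF receptors Kdr and Flt1 were present in 91.7% and 86.9%, the angiopoietin receptor Tek in 36.9% and Ly6c1 in 52.4%. All 66 cells with Cdh5 also had Cldn5.

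Pooled levels of the same genes separated the 84 cells from the rest of the retina for most of the set. Cldn5 stood at 1903 CPM in the 84 cells and 0.535 CPM in the 19889 cells outside the selection. In the 11 mice the Cldn5 level of the 84 cells ran from 1353 to 3730 CPM with a median of 1754 CPM. Cdh5 stood at 542 CPM in the 84 cells and 0.134 CPM outside. Kdr did not separate the cells, with 1051 CPM in the 84 cells, 2232 CPM in the 60 cells and 1714 CPM in the Müller glia reference. Since these genes chose the cells, their levels are a description.

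**Figure D2:**
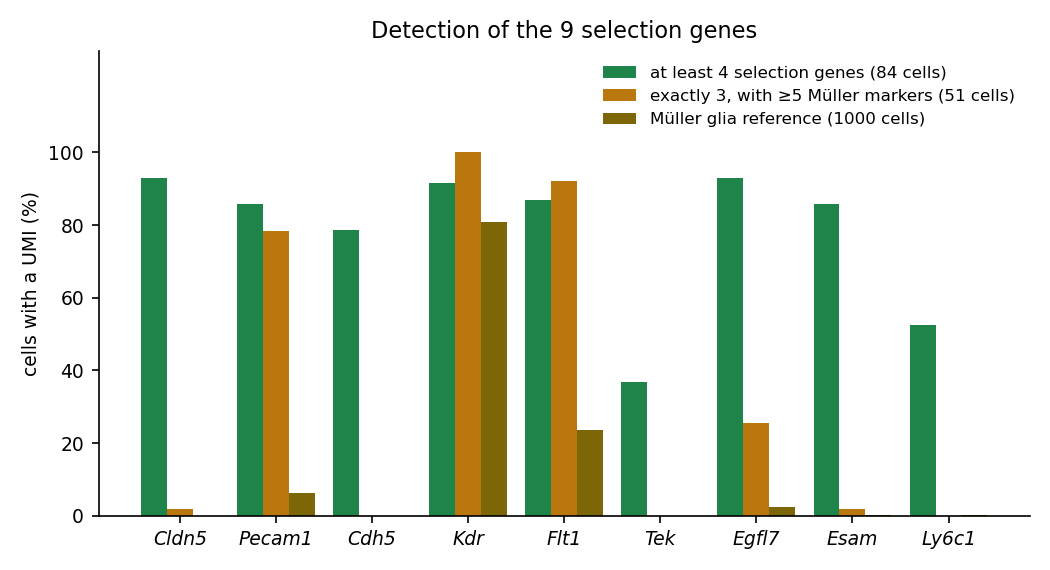
Percentage of cells with at least 1 UMI of each of the 9 selection genes (vertical axis), 1 bar for each set and gene. The sets are the cells with 4 or more selection genes, the 51 cells with exactly 3 and at least 5 Müller glia markers, and the reference Müller glia. Cldn5 was in 92.9% of the first set and in none of the Müller glia, while Kdr was in 91.7% and 80.9%.

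Outside the selection genes, 20 genes were named as those with the highest ratio of pooled CPM in the 144 cells to that in all other cells, among 3687 genes with at least 50 UMIs in the selected cells and UMIs in at least 8 of the 11 mice. They included the SoxF transcription factors Sox17 (ratio 1958) and Sox18 (596), with Sox7 (194) next in order. Receptors and surface proteins made up the largest group, with the adhesion receptor Adgrl4 (1303), the apelin receptor Aplnr (1007), Icam2 (987), the guidance receptor Robo4 (956), the chemokine scavenger Ackr2 (442), the TGF-β co-receptor Eng (391), Ly6c2 (353), the sialomucin Emcn (336) and Ecscr (252). Barrier transporters formed the third group, with Slco1c1, a thyroid hormone carrier (268), Mfsd2a, a carrier of DHA-containing lysophospholipid (250), the efflux pump Abcb1a (249) and the amino acid carrier Slc38a5 (215). The others were AU021092 (1515), Foxq1 (642), Tmem252 (379), Nostrin, which binds the endothelial nitric oxide synthase (243), and the secreted protease Htra3 (199).

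These genes lay almost wholly in the 84 cells. Sox17 had 86 UMIs in the 84 cells, none in the 60 cells and 2 in the 19889 cells outside. Adgrl4 had 509, 6 and 18 UMIs in the same order and was present in 83.3% of the 84 cells. Adgrl4 in the 84 cells ran from 270 to 1356 CPM over the 11 mice, with a median of 879 CPM. Because clusters of this kind are defined by the genes of the cells chosen, no test was made of the cells against the rest.

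The promoters of these genes were searched for short motifs. Of the 29 genes (the 9 selection genes and the 20 above), 19 matched an entry in the RefSeq promoter table (GRCm38.p6), which holds 250 bases before to 50 bases after the start. Promoters of 4 genes that the 84 cells expressed almost alone are shown, as 66 bases centred on 1 match, which lay 59 bases before the start in Tek, 50 in Robo4, 38 in Tmem252 and 67 in Emcn. The letters are those of the plus strand, with that match to the ETS-type motif CAGGAA in capitals (TTCCTG where the match is on the other strand).
Tek, chr4:94739200-94739265, plus strand: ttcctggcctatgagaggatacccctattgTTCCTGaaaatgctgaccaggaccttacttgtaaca
Robo4, chr9:37401892-37401957, plus strand: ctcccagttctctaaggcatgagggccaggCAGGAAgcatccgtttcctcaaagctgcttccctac
Tmem252, chr19:24673940-24674005, plus strand: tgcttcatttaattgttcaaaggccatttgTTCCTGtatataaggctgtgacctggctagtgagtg
Emcn, chr3:137340981-137341046, plus strand: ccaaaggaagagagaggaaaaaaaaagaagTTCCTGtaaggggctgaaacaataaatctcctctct
CAGGAA was in 10 of the 19 promoters and in 30.4% of all 27025 promoters of that length, both strands counted. The longer ACAGGAA was in 3 of 19 (8.50% of all), ACAGGAAG in 2 (3.45%), AGGAAGT in 6 (9.57%), CCGGAAG in 1 (9.12%) and the short core GGAAG in 15 (71.1%), and these motifs overlap one another. The Sox-type motifs ATTGTT and ACAATG were in 3 (10.9%) and 1 (12.8%), and the GATA-type motif GATAAG was in 1 (7.43%). A match is a run of letters in this window, and nothing was measured about binding.

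Genes of the blood-retina barrier were a large part of the profile. Of the 27 genes of the barrier and transport list with at least 10 UMIs in the 84 cells, 26 were higher there than in the cells outside the selection, with a median ratio of 28.5. Over all 8726 genes with that many UMIs 47.1% were higher, with a median ratio of 0.947. Slc2a1, the glucose carrier GLUT1, stood at 794 CPM and was present in 85.7% of the 84 cells, against 97.0 CPM outside. Slc7a5, a subunit of the large neutral amino acid carrier, stood at 739 against 23.7 CPM, and Slc38a5 at 621 against 2.01 CPM.

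Mfsd2a and Plvap mark barrier endothelium and fenestrated endothelium, respectively. Mfsd2a stood at 260 CPM in the 84 cells, with 175 UMIs in 55 cells of 11 mice. Plvap had 7 UMIs in 5 cells of 4 mice, at 10.4 CPM. Of the 5 cells with Plvap, 4 also had Mfsd2a. Mfsd2a ran from 90.0 to 448 CPM over the mice, with a median of 282 CPM, and every mouse had at least 2 UMIs.

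The norrin and Wnt list was detected at lower counts. Of 12 genes with at least 10 UMIs, 10 were higher in the 84 cells than outside, with a median ratio of 8.78. The norrin receptor Fzd4 stood at 62.4 CPM against 5.97 outside, its partner Tspan12 at 84.6 against 11.9, and the Wnt effector Lef1 at 56.4 against 5.22. The co-receptor Lrp5 stood at 31.2 against 23.4 CPM, and Axin2, a Wnt target, had 5 UMIs.

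Receptors of VEGF and angiopoietin were 13 of 14 higher in the 84 cells, with a median ratio of 37.2. The 14 included Kdr, Flt1 and Tek, which were used to choose the cells. Besides the selection genes, the lymphatic and tip cell VEGF receptor Flt4 stood at 59.4 CPM against 0.847 outside, the co-receptor Nrp1 at 143 against 10.0 and Tie1, the partner of Tek, at 279 against 5.44. The ligand Vegfa had 11 UMIs in the 84 cells (16.3 CPM), against 58.1 CPM outside and 262 CPM in the Müller glia. Angpt2, a ligand of Tek that endothelial cells make, had 31 UMIs in 14 cells.

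Tip cell, arterial and venous genes were found in the same cells. All 17 tip cell genes with at least 10 UMIs were higher in the 84 cells than outside, with a median ratio of 75.3, and a cell held a median of 6 of the 18 genes. The list includes Cldn5, which was used to choose the cells. The Notch ligand Dll4 was present in 32 of the 84 cells, the apelin receptor Aplnr in 50 and both in 24. The ligand Apln was present in 28 cells, and 22 of these also had Aplnr. The arterial connexin Gja4 was present in 28 cells, and 15 of these had Aplnr, here in the venous list. A cell held a median of 2 of 14 arterial and 3 of 12 venous genes, so at this depth the cells were not divided into arterial and venous sets.

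Kcne3 and Esm1, both of the tip cell list, rested mostly on 1 mouse. Kcne3, a potassium channel subunit, had 56 UMIs in the 84 cells, 44 of them in ω-6 mouse 2, and 1 UMI in all cells outside. Esm1, a secreted proteoglycan, had 7 UMIs in the 84 cells, all in the same mouse, and 7 more in 1 of the 60 cells. That mouse gave 16 of the 84 cells.

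All 21 genes of the basement membrane and matrix list with at least 10 UMIs were higher in the 84 cells, with a median ratio of 27.03. The list includes Egfl7, which was used to choose the cells. The type IV collagen chains Col4a1 and Col4a2 stood at 1948 and 1354 CPM against 13.9 and 17.7 CPM outside. Nid1, which links laminin to collagen IV, stood at 319 against 2.43 CPM, and the laminin chain Lama4 at 267 against 1.54 CPM. Sparc, a collagen-binding matrix protein, was present in all 84 cells at 5599 CPM, with 3150 CPM in the Müller glia and 367 CPM in all cells outside.

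Genes of insulin and IGF signaling were led by binding proteins. Igfbp7 stood at 3516 CPM in the 84 cells and 47.6 CPM outside, and Igfbp3 at 340 against 1.54 CPM. The receptor Igf1r stood at 74.2 against 180 CPM, and the ligand Igf1 had 4 UMIs in 1 cell. Of the adiponectin, fatty acid and lipoprotein list, 7 of 17 genes were higher, with a median ratio of 0.795. The adiponectin receptor Adipor1 stood at 150 against 189 CPM. Gpihbp1, which holds lipoprotein lipase on the capillary wall, had 22 UMIs in the 84 cells and none in the 19889 cells outside, at least 488-fold higher when the limit of 3 counts over those cells is used. The fatty acid carrier Cd36 had none in the 84 cells, a count that allows 3 of their 673552 UMIs.

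Glycolysis genes lay lower in the 84 cells than in the rest of the retina for 11 of 14 genes, with a median ratio of 0.510. Gapdh stood at 1060 against 2294 CPM, Ldha at 298 against 788 and Pgk1 at 147 against 321 CPM. The 60 cells differed from the 84 cells in Eno1, which stood at 6290 CPM there, 5049 CPM in the Müller glia and 791 CPM in the 84 cells. Reads of Eno1 can be shared with its near-identical copy Eno1b.

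**Figure D3:**
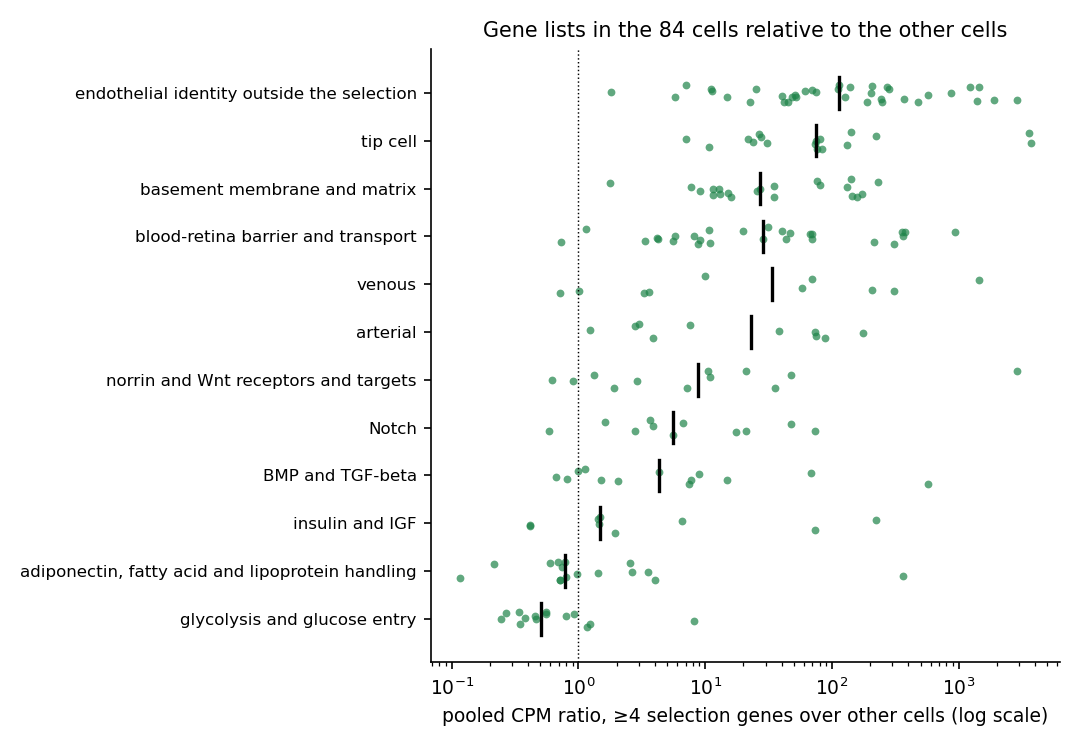
Ratio of pooled CPM in the 84 cells with 4 or more selection genes to that in the cells outside the selection (horizontal, log scale), 1 point for each gene with at least 10 UMIs, with a bar at the median of each list. The medians ran from 113 for the endothelial identity genes to 0.510 for glycolysis. The tip cell and matrix lists include the selection genes Cldn5 and Egfl7, respectively.

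Transcripts of other cell types were present in some of the 84 cells. At least 3 of 12 mural cell markers were found in 19 cells, of which 11 came from ω-6 mouse 2, 4 from Phase I ROP mice, 2 from the other ω-6 mice, 2 from ω-3 mice and none from control mice. Mural cells (pericytes and smooth muscle) wrap the endothelium. The pericyte gene Rgs5 stood at 2813 CPM in these 19 cells and 10.9 CPM in the other 65, and the 19 cells had a median of 11432 UMIs against 4998. At least 3 of 9 rod markers were found in 21 cells and at least 3 microglia markers in 1 cell. Glul, the glutamine synthetase of Müller glia, had a UMI in 58 of the 84 cells.

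The selected cells were deeply sequenced for this series. Their median was 5297.5 UMIs and 2285.5 genes per cell, against 1522 UMIs and 877 genes in the cells outside, and 113 of the 144 had over 2 times the median UMIs of their own mouse. Whether some held the RNA of more than 1 cell was not tested.

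A set of the 84 cells carried mitotic transcripts. At least 3 of 10 mitotic genes were found in 11 cells, against 1 of the 60 cells and 13 of the 1000 Müller glia (1.3%). Of the 11 cells, 6 came from ω-6 mouse 2, 3 from Phase I ROP mice, 1 from a control and 1 from an ω-3 mouse. Most of the 11 also carried markers of another cell type, 6 with at least 3 mural markers (5 of them from ω-6 mouse 2) and 1, the control cell, with 8 Müller glia markers and no Cldn5 or Cdh5. The remaining 4 had neither. Top2a, which untangles DNA before division, had 96 UMIs in 15 of the 84 cells. Detection of these genes rises with the UMIs of a cell, and the counts were not adjusted for it.

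The share of selected cells was compared between groups over mice. In control mice 1.19%, 1.27% and 1.74% of the cells were selected (11, 10 and 26 cells), and in Phase I ROP mice 0.392%, 1.00% and 0.389% (8, 14 and 9 cells). The groups did not overlap, with 1.40% ± 0.298 (SD, n = 3) in control and 0.595% ± 0.353 in Phase I ROP mice (exact permutation test over mice, two-sided, p = 0.1, the smallest that 3 against 3 mice allow). Cells with 4 or more genes gave 0.917% ± 0.370 and 0.359% ± 0.185 (exact p = 0.1).

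Depth per cell moved with this difference, so each cell was also thinned to 500 UMIs, and this was the share set for the test. After thinning the share was 0.476% ± 0.226 in control and 0.315% ± 0.129 in Phase I ROP mice, and the groups overlapped (exact permutation test, p = 0.3). At that depth only 15 control and 16 Phase I ROP cells met the rule, and 88 and 373 shallower cells were left out. Against the cells that were not reference rods (at least 5 rod markers), the unthinned share was 1.78% ± 0.494 in control and 1.30% ± 0.729 in Phase I ROP mice (exact permutation p = 0.4). With 3 against 3 mice no form of the share could pass 0.05. The groups overlapped in both of these forms, and the mean stayed lower in Phase I ROP mice. Thinned to 750 UMIs, the share was 0.489% ± 0.216 in control and 0.445% ± 0.389 in Phase I ROP mice (exact permutation p = 0.9). At 500 UMIs it was 0.809% ± 0.490 and 0.795% ± 0.312 for at least 2 selection genes. For at least 4 it was 0.149% ± 0.0509 and 0.165% ± 0.0172, higher in Phase I ROP mice (exact permutation p = 0.6). Whether depth per cell or the number of rods made the unthinned difference was not tested.

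Between the diets the shares overlapped. In ω-3 mice 0.586% and 0.625% of the cells were selected (14 and 16 cells), and in ω-6 mice 0.229%, 0.968% and 0.670% (6, 21 and 9 cells). After thinning to 500 UMIs, the share was 0.145% ± 0.0359 (n = 2) with the ω-3 and 0.114% ± 0.0647 (n = 3) with the ω-6 diet (exact permutation test, p = 0.6; 3 against 2 mice cannot go below 0.2), from 7 cells in each group.

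**Figure D4:**
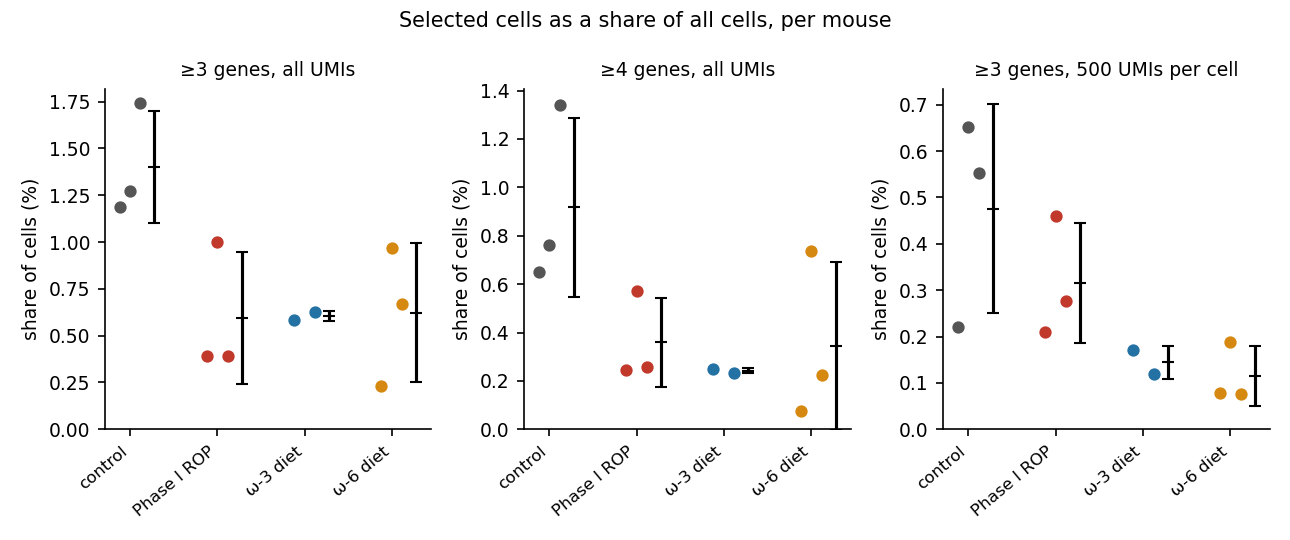
Selected cells as a percentage of the cells of each mouse (vertical axes, 1 point per mouse, with the mean and SD beside them) for at least 3 selection genes, for at least 4, and for at least 3 after each cell was thinned to 500 UMIs. Control and Phase I ROP mice are apart in the first 2 panels (1.40% against 0.595% in the first) and overlap in the third, and the lower SD bar of the ω-6 mice is cut at 0 in the second.

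To ask which genes changed with hyperglycemia in these cells, the UMIs of all 144 cells were summed per mouse and Phase I ROP was compared with control. Matrix genes and a few endothelial genes outside the selection genes were higher in Phase I ROP mice, as were immediate early genes, and mitochondrial and small nuclear RNAs were lower. With edgeR's quasi-likelihood test, 68 of 1122 genes (6.06%) passed an adjusted p of 0.05, 45 higher and 23 lower. Among the 45 were the selection genes Pecam1 and Cdh5, which are given below as a description, so that 43 of the higher genes lay outside the selection. The mice did not overlap for any of the 68, as for 280 of the 1122 genes tested (24.96%). Without Phase I ROP mouse 2 the count was 22 and without control mouse 1 it was 25. Among the 84 cells alone 52 of 571 genes (9.11%) passed, 31 higher and 21 lower, of which 35 were shared with the 68. The summed Müller glia markers of the 144 cells overlapped between the groups, at 3505 to 10784 CPM in control and 3654 to 10762 CPM in Phase I ROP mice. Since cells of several kinds were summed, a change in the cells chosen and a change of RNA within a cell cannot be told apart. Levels below are CPM per mouse after TMM scaling, and mice are given in the order of their numbers.

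Of the 15 genes of the basement membrane and matrix list that could be tested, 4 were called higher and none lower. Among all genes tested 6.06% were called. The median log2 change of the 15 was 1.15, against -0.05 over all genes tested. The 15 included the selection gene Egfl7, which was not called. Col4a2 (chr8:11312805-11449287, GRCm38) was 377, 317 and 427 CPM in control and 2532, 1367 and 1838 CPM in Phase I ROP mice. All 3 Phase I ROP mice lay above all control mice, with a log2 change of 2.32 ± 0.34 (SE; adjusted p = 3.74e-04). Its neighbour Col4a1 (chr8:11198423-11312826), which is read from the opposite strand, was 889, 663 and 844 CPM in control and 2423, 1499 and 1987 CPM in Phase I ROP mice (log2 change 1.29, adjusted p = 0.0209). Fn1, the matrix protein fibronectin, averaged 606 ± 244 in control and 1533 ± 274 CPM in Phase I ROP mice (log2 change 1.31, adjusted p = 0.0321), and Sparcl1, a relative of Sparc, 515 ± 161 and 1587 ± 615 CPM (1.59, adjusted p = 0.0140). In the 84 cells 5 of 13 tested matrix genes were called higher, these 4 and Vim, an intermediate filament. There 9.11% of all genes tested were called.

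In the cells outside the selection the matrix genes had other values. There Col4a2 was 15.3 ± 5.43 CPM in control and 27.4 ± 12.4 in Phase I ROP mice, Col4a1 18.6 ± 6.77 and 21.4 ± 4.77, Sparcl1 54.2 ± 13.3 and 58.4 ± 13.9, and Fn1 83.3 ± 28.6 and 41.9 ± 6.71 CPM. In the Müller glia reference, which 58 of the 144 cells resembled in having 5 or more of the markers, the means of all 4 genes were higher in Phase I ROP mice. There Col4a2 was 5.49 ± 9.51 and 46.5 ± 41.8 CPM, Col4a1 19.7 ± 8.69 and 37.8 ± 11.9, Sparcl1 6.21 ± 10.8 and 19.2 ± 18.2, and Fn1 137 ± 22.7 and 214 ± 58.3 CPM. Whether the change differed between the selected cells and the others was not tested. The sum of the mural markers was also higher in Phase I ROP mice. Their summed level in the selected cells was 144 to 408 CPM in control and 763 to 2830 CPM in Phase I ROP mice, and all 12 markers had UMIs in the 84 cells. In the 84 cells alone the sum was 0, 83.5 and 42.0 CPM in control and 2865, 2288 and 143 CPM in Phase I ROP mice. The only marker with the counts for edgeR's test had a log2 change of -1.12 and was not called. Among the pericyte genes, Rgs5 had no UMI in control and 63, 79 and 1 UMIs in Phase I ROP mice, and Pdgfrb had 0, 1 and 0 against 6, 11 and 0 UMIs. In the 65 of the 84 cells with fewer than 3 mural markers, Col4a2 (log2 change 2.17, adjusted p = 9.53e-04), Col4a1 (1.03, 0.0425), Fn1 (1.28, 0.0128) and Sparcl1 (1.47, 0.0253) stayed past the threshold in edgeR's test, a selection chosen after seeing the data. When every one of the 144 cells with 2 or more mural or microglia markers was left out, none of the 4 genes passed, with Col4a2 at 2.03 (adjusted p = 0.0550).

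Among the endothelial identity genes outside the selection 17 could be tested, 2 were called higher and all 17 estimates were above 0, with a median log2 change of 1.01. Over all genes tested 6.06% were called. The selection genes, summed in the 84 cells, were 4235 to 4984 CPM in control and 5730 to 10952 CPM in Phase I ROP mice. Whether the choice of cells raised genes expressed along with them was not tested. Eng was 242, 151 and 172 CPM in control and 300, 573 and 830 CPM in Phase I ROP mice (log2 change 1.59 ± 0.43, adjusted p = 0.0345). The transcription factor Ets2 was 94.3, 15.1 and 66.6 CPM and 490, 294 and 178 CPM (2.36 ± 0.58, adjusted p = 0.0221). In the 84 cells Cd93, a surface lectin, and Mcam, an adhesion molecule, were called as well, with log2 changes of 1.05 and 2.40 (adjusted p = 0.0344 and 0.0362). Mcam stood at 817 CPM in the 19 cells with at least 3 mural markers, none of them from control mice, and at 277 CPM in the other 65. The part of mural RNA in the Mcam change was not tested. Of the genes with the highest ratio in these cells, Tmem252 was also called (95.1 ± 43.8 against 346 ± 42.2 CPM, log2 change 1.75, adjusted p = 0.0288).

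The selection genes themselves are given as a description, since a cell with more of them was more likely to be chosen. Pecam1 averaged 256 ± 42.8 CPM in control and 680 ± 185 in Phase I ROP mice, and Cdh5 174 ± 83.6 and 539 ± 177 CPM. Cldn5 averaged 1154 ± 217 and 1572 ± 670 CPM, and Kdr 869 ± 182 and 1344 ± 327 CPM, both with overlapping mice. The mice overlapped for Egfl7 and Esam too.

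None of the 12 barrier genes that could be tested was called, a count close to the 6.06% called over all genes, and their median log2 change was 0.61. Slc2a1 was 498, 271 and 405 CPM in control and 381, 1102 and 1097 CPM in Phase I ROP mice (log2 change 1.14 ± 0.40, adjusted p = 0.103), so 1 of the Phase I ROP mice lay within the control range. Slc38a5 averaged 474 ± 204 and 458 ± 252 CPM. None of 5 VEGF and angiopoietin receptor genes, 3 insulin and IGF genes, 8 glycolysis genes or 3 proliferation genes was called, counts that the same 6.06% also allows. The 5 receptor genes included the selection genes Kdr and Flt1. No arterial or Notch gene had the counts to be tested. Of the 5 tip cell genes tested, which included the selection gene Cldn5, the 2 called were Col4a1 and Col4a2.

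Of the genes that the study names for these mice, Adipor1 and Sparc could be tested outside the selection genes, and neither passed. Adipor1 was 135, 60.3 and 106 CPM in control and 245, 206 and 148 CPM in Phase I ROP mice, without overlap (log2 change 0.97 ± 0.53, adjusted p = 0.324). Sparc was 3528, 4659 and 4474 CPM and 4710, 5863 and 8332 CPM, also without overlap (0.58 ± 0.32, adjusted p = 0.331). Mice did not overlap for 280 of the 1122 genes tested. In the cells outside the selection Adipor1 was 89.7 ± 23.2 CPM in control and 240 ± 24.8 in Phase I ROP mice. There Igf1r was 62.2 ± 2.17 and 204 ± 35.1 CPM, and Sparc 484 ± 145 and 405 ± 49.9 CPM. Igf1 had 5 UMIs in the selected cells of 1 control mouse and none in any other mouse, and Igf1r had 0, 8 and 6 UMIs in control and 1, 19 and 6 UMIs in Phase I ROP mice. Vegfa had 12, 1 and 5 UMIs in control and 0, 2 and 1 in Phase I ROP mice.

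Immediate early and stress genes gave the largest increases. Of 16 genes of the dissociation response list that could be tested, 12 were called higher, against 6.06% called over all genes. Their median log2 change was 2.33. The orphan receptor Nr4a1 had no UMI in the selected cells of control mice and 27, 40 and 14 UMIs in those of Phase I ROP mice (579 ± 160 CPM), at least 68.0-fold higher when 3 counts over the control group are used as the limit (adjusted p = 1.15e-05). Fosb had 0, 0 and 1 UMIs in control and 13, 48 and 15 UMIs in Phase I ROP mice (log2 change 6.78 ± 0.70). The AP-1 subunit Junb was 34.4 ± 23.9 against 545 ± 71.4 CPM, the transcription factor Klf6 19.3 ± 16.8 against 447 ± 185 CPM, and the NF-κB inhibitor Nfkbia 84.6 ± 23.2 against 858 ± 697 CPM. The co-regulator Ifrd1 was 20.6 ± 11.02 against 670 ± 515 CPM and the heat shock co-chaperone Dnajb1 3.70 ± 6.41 against 199 ± 65.0 CPM.

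The same direction was present in the cells outside the selection. There Nr4a1 was 4.34 ± 1.24 CPM in control and 245 ± 13.7 CPM in Phase I ROP mice, and Junb was 39.7 ± 4.73 and 196 ± 33.4 CPM. Ets2 moved there too, with 7.24 ± 4.401 and 26.6 ± 3.20 CPM, whereas Eng stood at 0.524 ± 0.907 and 0.653 ± 0.593 CPM. The part of tissue dissociation in these values was not tested.

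Among the decreases, the small nuclear and mitochondrial RNAs that set the control libraries apart were prominent. Rn7sk, a small nuclear RNA that restrains transcription elongation, was 1050, 588 and 1010 CPM in control and 163, 0 and 0 CPM in Phase I ROP mice (log2 change -4.23 ± 0.72, adjusted p = 1.49e-03). Gm37357, which is not annotated as protein-coding (chr1:161811045-161814167), was 5929 ± 725 against 286 ± 342 CPM. Gm24447 and Gm26315 had identical counts, 23, 11 and 29 UMIs in control and none in Phase I ROP mice, at least 8.34-fold lower; they may be near-identical copies that share reads. mt-Rnr2 fell from 70860 ± 24248 to 12545 ± 5660 CPM (log2 change -2.50, adjusted p = 2.32e-03).

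Of 13 mitochondrially encoded proteins, 5 were called lower, with a median log2 change of -1.10, against 6.06% of all genes called in either direction. The 5 were the complex I subunits mt-Nd2, mt-Nd3, mt-Nd4 and mt-Nd5 and the complex III subunit mt-Cytb. mt-Nd4 was 8013, 11444 and 8492 CPM in control and 4846, 2689 and 4359 CPM in Phase I ROP mice (log2 change -1.24 ± 0.34, adjusted p = 0.0356). In the cells outside the selection these RNAs were lower too, with mt-Nd4 at 9496 ± 666 and 5020 ± 2178 CPM and mt-Cytb at 11447 ± 662 and 5946 ± 3442 CPM.

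Lpcat1, an enzyme that adds acyl chains to lysophosphatidylcholine, fell in the selected cells. It was 418, 226 and 433 CPM in control mice (31, 15 and 78 UMIs) and 0, 73.5 and 29.7 CPM in Phase I ROP mice (0, 5 and 1 UMIs). All Phase I ROP mice lay below all control mice, with a log2 change of -3.08 ± 0.62 (adjusted p = 5.86e-03), and of -3.73 in the 84 cells alone (adjusted p = 4.88e-03). Without control mouse 1 the adjusted p of Lpcat1 in edgeR's test was 0.0645. In the cells outside the selection Lpcat1 averaged 159 ± 17.7 CPM in control and 130 ± 5.69 CPM in Phase I ROP mice. Whether the change differed between the selected cells and the others was not tested.

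**Figure D5:**
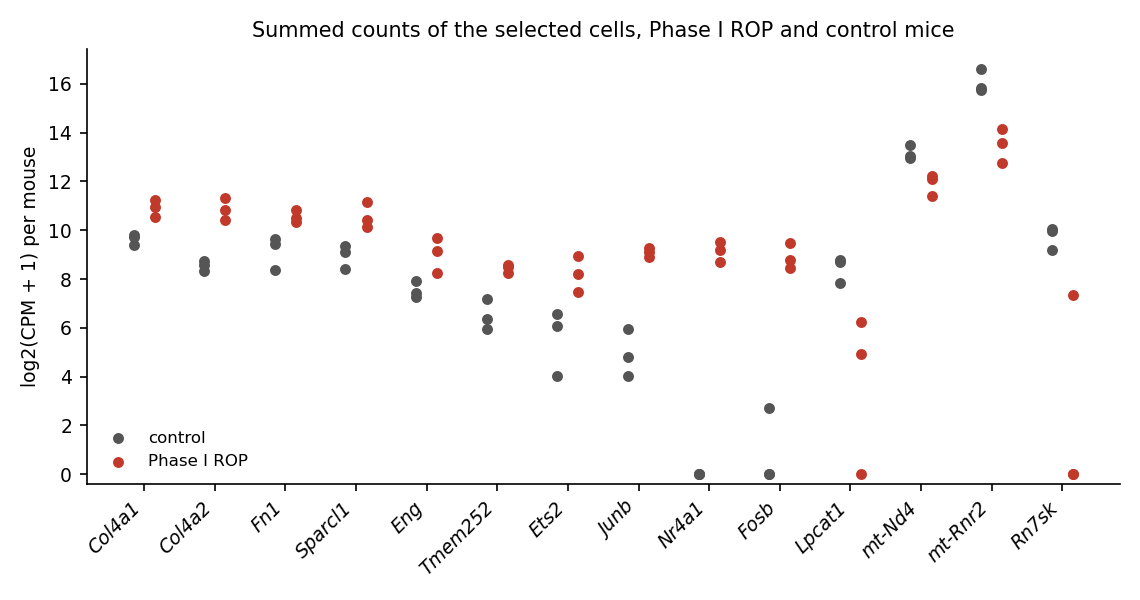
log2(CPM + 1) after TMM scaling of 14 called genes in the summed counts of the selected cells (vertical axis), 1 point for each control or Phase I ROP mouse. The matrix genes on the left are higher in all Phase I ROP mice (Col4a2 1912 against 374 CPM on average), and Lpcat1 and the RNAs on the right are lower.

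To ask whether the diet changed these cells, ω-6 was compared with ω-3 in STZ-treated mice. With all mice no gene passed, 0 of 1647 (0%) with edgeR and 0 with DESeq2, and 62 genes had an unadjusted p under 0.05. In the 84 cells, where ω-6 mouse 1 with 2 cells was left out of the fit, 0 of 860 (0%) passed and 39 had an unadjusted p under 0.05. Leaving out either ω-3 mouse, or any mouse in the fit of the 84 cells, left 1 mouse in a group. Such fits have no replication in that group, and their counts are not given.

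Genes with the smallest unadjusted p are given as values, all with an adjusted p of 1.00 in edgeR's test. Id1, an inhibitor of differentiation that BMP signaling induces, was 400 and 276 CPM with the ω-3 diet and 163, 60.5 and 60.2 CPM with the ω-6 diet. The taurine carrier Slc6a6 was 626 and 284 CPM against 54.3, 74.5 and 181 CPM. Tmem123 averaged 324 ± 24.6 against 102 ± 28.7 CPM and the chromatin remodeler subunit Pbrm1 474 ± 234 against 143 ± 80.1 CPM. For none of these 4 genes did the mice overlap, as for 286 of the 1647 genes tested (17.4%).

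Toward higher values with the ω-6 diet, the actin bundler Lcp1 was 79.9 and 56.9 CPM in ω-3 and 435, 359 and 150 CPM in ω-6 mice. The chemokine Cxcl2 had no UMI in ω-3 mice and 8, 19 and 10 UMIs in ω-6 mice, at least 7.77-fold higher with 3 counts over the ω-3 group as the limit. Nfkbia averaged 624 ± 78.2 against 1396 ± 273 CPM and Trp53i11 147 ± 114 against 521 ± 222 CPM. The summed Müller glia markers were 14484 and 11785 CPM in ω-3 and 10887, 2738 and 13353 CPM in ω-6 mice, and their part in these values was not tested.

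Igf1r, Vegfa and Sparc, which the study names, did not pass either. Igf1r was 200 and 211 CPM with the ω-3 and 163, 69.8 and 90.3 CPM with the ω-6 diet (log2 change -1.08 ± 0.55, unadjusted p = 0.0725 in edgeR's test). Its mice did not overlap, as for 17.4% of the genes tested. Vegfa was 213 and 179 against 163, 97.8 and 165 CPM, and Sparc 5052 ± 402 against 4650 ± 727 CPM. Kdr, which helped to choose the cells, is given as a description, at 2444 ± 368 against 1800 ± 631 CPM. Its log2 change was -0.45 in all selected cells and -0.08 in the 84 cells, where ω-6 mouse 1 was left out. In the 84 cells Vegfa had UMIs in 2 of the 3 ω-6 and 1 of the 2 ω-3 mice. The hemoglobin gene Hbb-bs had 0 and 389 UMIs in ω-3 mice and 0, 44 and 0 in ω-6 mice, so 1 ω-3 mouse carried most of the erythroid transcripts.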

How the data were processed

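Whole UMI counts per gene and cell of 11 mouse retina libraries were analysed. The authors made them with bcbio-nextgen and umis, left out barcodes with fewer than 500 reads, and assigned reads with Rapmap to transcripts of GRCm38 (mm10); the deposited counts were not normalized. Reads that several genes share can be split between near-identical copies. Whether free RNA was removed is not given in the sources used here.

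Counts were summed per mouse over the selected cells and tested with edgeR 4.0.16 in R 4.3.3 (quasi-likelihood, TMM, filterByExpr, Benjamini-Hochberg over all genes tested). DESeq2 1.42.0 was an alternative. Mice with under 3 cells were left out of a fit. Shares were compared with exact two-sided permutation tests over mice. The script was tested on simulated data. The sum of the counts set the precision, from 31455 UMIs per mouse.

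Members and gene lists were chosen with earlier results of these data known. Named were the list genes, the 20 highest ratios, the 5 largest changes in each direction among called genes whose mice did not overlap (or the smallest p), and genes the study names. List genes given as examples, and Hbb-bs, were picked after their values were seen. Some genes that met this rule are not reported here. Coordinates came from GENCODE M21. Limits from a count of 0 cover counting error only. p-values measure the spread between mice within these libraries.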

Additional observations from a re-analysis of the deposited data

How the results depend on the processing

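Counts of called genes depended on the cells and mice used more than on the tool. For Phase I ROP against control, 68 genes were called with all 144 cells, and DESeq2 called 64 (61 of them among the 68), median-of-ratios scaling 68 and a fit of all 4 groups 60. A lower filter (min.count 3) called 38 genes and cells with at least 2 selection genes 221. Leaving out cells with 2 or more mural or microglia markers called 5. Leaving out cells above 2 times the median UMIs of their mouse left only Phase I ROP mouse 2 (4 cells) in its group. That fit had no replication there, so its count is not given. Chosen after seeing the data, leaving out cells with 5 or more Müller markers called 41, and the cells with 4 or more genes and under 3 mural markers 21. Leaving out 1 mouse gave 22 to 98 genes (25 without control mouse 1, 22 without Phase I ROP mouse 2) and 27 to 79 in the cells with 4 or more genes (27 without Phase I ROP mouse 2, 41 without mouse 3). Col4a2 was called in 25 of 26 alternatives, Lpcat1 in 22 of 24, Sparcl1 in 18 of 26, Fn1 in 16 of 27, Col4a1 in 15 of 27, Ets2 in 15 of 23 and Eng in 11 of 26. The direction of Fn1 turned in 1 of these (log2 change -0.09), the fit with Phase I ROP mouse 2 alone. The counts of alternatives given here include that fit. Of the genes named for their size of change, 195 of 208 values kept their direction and call and 13 lost the call; Dnajb1 lost it in 4 alternatives and Rn7sk in 3 (with DESeq2, and when cells of high UMIs or with mural or microglia markers were left out).

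For the diets, 0 genes became 7 without a filter, 2 in the cells with 4 or more genes and under 3 mural markers, 0 to 9 when 1 mouse was left out (9 without ω-3 mouse 1), and 0 to 27 in the cells with 4 or more genes (27 without ω-6 mouse 2, 5 without ω-6 mouse 3; a lone mouse left in a group was assumed to vary like the other group). The fit without cells above 2 times the median UMIs could not be fitted.

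With a replicate block 58 genes were called between Phase I ROP and control, and 0 between ω-6 and ω-3. Animals share only a number across groups (correlations of deviations -0.0099, 0.084 and 0.131, and 0.071 and 0.178), so the block is given only here.

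The difference in thinned share, Phase I ROP minus control, was -0.160 percentage points, and -0.287 to -0.0715 with 1 mouse left out. It was -0.0448 at 750 UMIs and -0.0142 for at least 2 genes, and turned to 0.0157 for at least 4 genes (exact permutation p = 0.6). For ω-6 minus ω-3 it was -0.0306 (-0.0679 to -0.00521) and turned to 0.0171 without thinning, 0.103 for at least 4 genes without thinning, 0.126 for the same over cells that were not reference rods, and 0.0547 without cells with 5 or more Müller markers. Without ω-6 mouse 2 the difference for at least 4 genes was -0.0928. The cause of these changes was not tested. Few cells and UMIs per mouse limit every comparison.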
